A study of Mus musculus with 6 samples.

Results

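The genes described here encode splicing factors and nuclear ribonucleoproteins. They encode SR proteins (Srsf), core and particle-specific proteins of the small nuclear ribonucleoproteins (Snrp) and the heterogeneous nuclear ribonucleoproteins (Hnrnp). They also encode the subunits of SF3a and SF3b (Sf3) and the numbered RNA-binding motif proteins (Rbm). They were chosen by symbol alone, and 82 of the 10995 genes in the count table were members: 10 Srsf, 12 Snrp, 20 Hnrnp, 9 Sf3 and 31 Rbm genes. RNA was taken from the mammary tumor cells of MMTV-PyVT mice on the FVB/NJ background and sequenced as 3 libraries labelled Nr4a1 knockout (KO) and 3 labelled wild type (WT), from mice of matched age. Both groups carry the PyVT transgene, the polyoma middle T oncogene expressed in mammary epithelium from the MMTV promoter, so neither group is free of the oncogene. Nr4a1 encodes an orphan nuclear receptor, and the comparison asks which transcripts differ between tumor cells with and without it. Nothing in the labels ties the libraries to separate animals, and the p-values reflect no more than the spread among the libraries at hand, part of which may be technical.

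Introns are removed from pre-mRNA by the spliceosome, which is built from U-rich small nuclear RNAs and their proteins. A ring of Sm proteins holds most of these RNAs, U1 recognises the start of the intron, and SF3a and SF3b, as parts of U2, hold the branch point. SR proteins bind exons and mostly favour their inclusion, whereas many Hnrnp proteins act against it, and the balance between these families sets much of alternative splicing in epithelial and tumor cells. Many of these genes also limit their own protein by splicing their transcripts into forms that are degraded. Counts per gene show the amount of transcript and hold nothing on which isoforms were made.

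Library depth lay between 19569173 and 24188875 counts, and the 82 genes took between 1.12% and 1.21% of them. The Nr4a1 transcript had 612, 847 and 746 counts in KO replicates 1, 2 and 3, against 711, 406 and 358 in WT replicates 1, 2 and 3. It was thus not lower with the knockout label (log2 fold change 0.49, SE 0.32, edgeR adjusted p = 0.59), and the exact permutation test gave a two-sided p = 0.2, where 0.1 is the smallest possible. Which part of the gene the allele removes is not stated in the labels, so the transcript checks nothing about the labels, and directions are between libraries as labelled. WT replicate 1 stood apart from the other 5 libraries on the first principal component of all genes, which carried 60.1% of the variance. The summed level of luminal epithelial markers was 4084 to 5093 CPM (the count relative to library size after TMM scaling) in KO libraries and 6480 to 7245 CPM in WT libraries, with 10 of 11 listed and 0 of those 10 higher in KO. That of macrophage markers was 1227 to 1424 CPM in KO and 850 to 1022 CPM in WT (13 of 15 listed, 12 higher in KO). Fibroblast markers summed to 5159 to 9421 CPM in KO and 2404 to 5791 CPM in WT (8 of 10 listed, 8 higher in KO), and pericyte and smooth muscle markers to 850 to 1964 CPM in KO and 250 to 1047 CPM in WT (7 of 8 listed, 7 higher in KO). Basal markers summed to 1047 to 1621 CPM in KO and 957 to 2072 CPM in WT (6 of 6 listed, 3 higher in KO). The 2 of 6 adipocyte markers that were listed summed to 53.4 to 134 CPM in KO and 11.6 to 21.5 CPM in WT, and both were higher in KO. The single listed marker of 8 for endothelium stood at 10.7 to 17.8 CPM in KO and 2.28 to 4.59 CPM in WT, and that of 9 for lymphocytes at 10.3 to 11.3 CPM in KO and 4.94 to 7.48 CPM in WT. In such bulk RNA, fewer cells of a type and less RNA per cell cannot be told apart, and the part of these markers in the results was not tested.

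Fitted differences between the groups were small for most of the 82 genes. The median log2 fold change, KO over WT, was -0.02 over the 82 genes, 33 lying above 0 and 49 below, and it was -0.0024 over all genes. The fold changes ran from -0.48 for Srsf2 to 0.18 for Snrpe. By family the medians were -0.02 for Srsf, 0.03 for Snrp, -0.04 for Hnrnp, -0.04 for Sf3 and -0.02 for Rbm genes. The median size of the change was 0.075 among the members and 0.13 over all genes. For 78 of the 82 the 95% confidence interval of the fold change lay within 1.5-fold either way, which is 95.1%, against 66% of all genes. For 48 of them it lay within 1.25-fold, which is 58.5%, against 28.2% of all genes. The members stood at a median of 82.8 CPM, against 41.8 CPM over all genes. These shares and sizes were not matched for level. The intervals of Srsf2 (-1.01 to 0.06), Rbm33 (-0.62 to 0.06), Rbm47 (-0.65 to 0.31) and Hnrnpa3 (-0.38 to 0.586) reached past 1.5-fold.

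**Figure D1:**
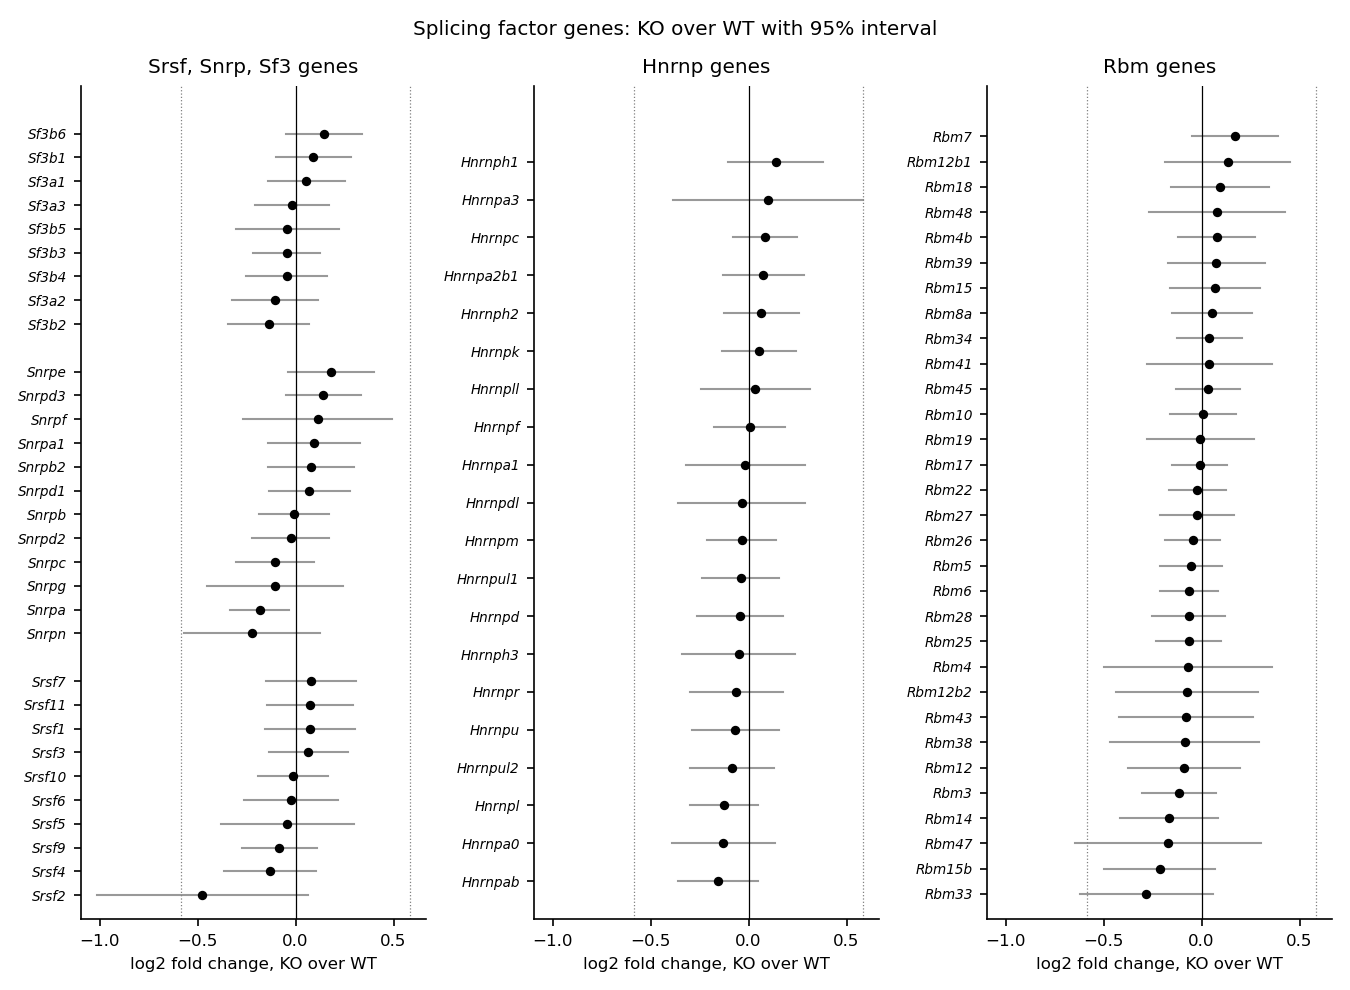
Log2 fold change, KO over WT, of each of the 82 genes (points) with its 95% confidence interval (bars), by family; the solid line is 0 and the dotted lines are 1.5-fold either way. The points run from -0.48 for Srsf2 to 0.18 for Snrpe, and the intervals of 78 genes stay between the dotted lines.

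EdgeR's quasi-likelihood test with Benjamini-Hochberg adjustment called 0 of the 82 genes higher and 0 lower, and it called 0% of all genes. The smallest adjusted p among the members was 0.574, shared by several of them. At an unadjusted p under 0.05 it gave 1 member, against 7.88% of all genes: 0 higher in KO (against 3.70%) and 1 lower, Snrpa (against 4.17%). DESeq2 also called 0 members after adjustment (smallest adjusted p = 0.33), against 0.937% of all genes, and gave 3 at an unadjusted p under 0.05 (Snrpa, Srsf2 and Hnrnpab), against 10.7% of all genes. limma-voom gave 1, again Snrpa, against 8.09% of all genes. The 3 KO libraries all lay above the 3 WT libraries for 3 members (Snrpe, Sf3b6 and Hnrnpc), against 8.39% of all genes, and all below for 5 (Snrpa, Hnrnpab, Hnrnpl, Rbm3 and Rbm15b), against 9.05%. These 8 genes are 9.76% of the members, and 17.4% of all genes had groups that did not overlap. Without WT replicate 1, edgeR gave 2 members at an unadjusted p under 0.05 (Snrpa and Snrpd3), against 6.85% of all genes, and without WT replicate 2 it gave 3 (Srsf2, Rbm33 and Snrpa), against 12.4%. It gave 0 without KO replicate 1, KO replicate 3 or WT replicate 3, against 4.67%, 7.81% and 6.95% of all genes.

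The members also varied little between libraries of a group. The median SD of log2 CPM within groups was 0.095 among the members and 0.15 over all genes. Across all libraries of both groups, the ratio of the highest library to the lowest had a median of 1.21 among the members and 1.35 over all genes. Neither comparison was matched for level, which was higher among the members. This ratio passed 1.5 in 4 of the 82 members, against 3894 of all 10995 genes. The 4 were Srsf2 (2.07), Hnrnpa3 (1.65), Rbm47 (1.61) and Rbm33 (1.59). WT replicate 1 was the highest library for 31 of the 82 genes (37.8%, against 32.2% of all genes). KO replicate 3 was the highest for 24 and KO replicate 1 the lowest for 21, and shares over all genes are not given for these counts.

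**Figure D2:**
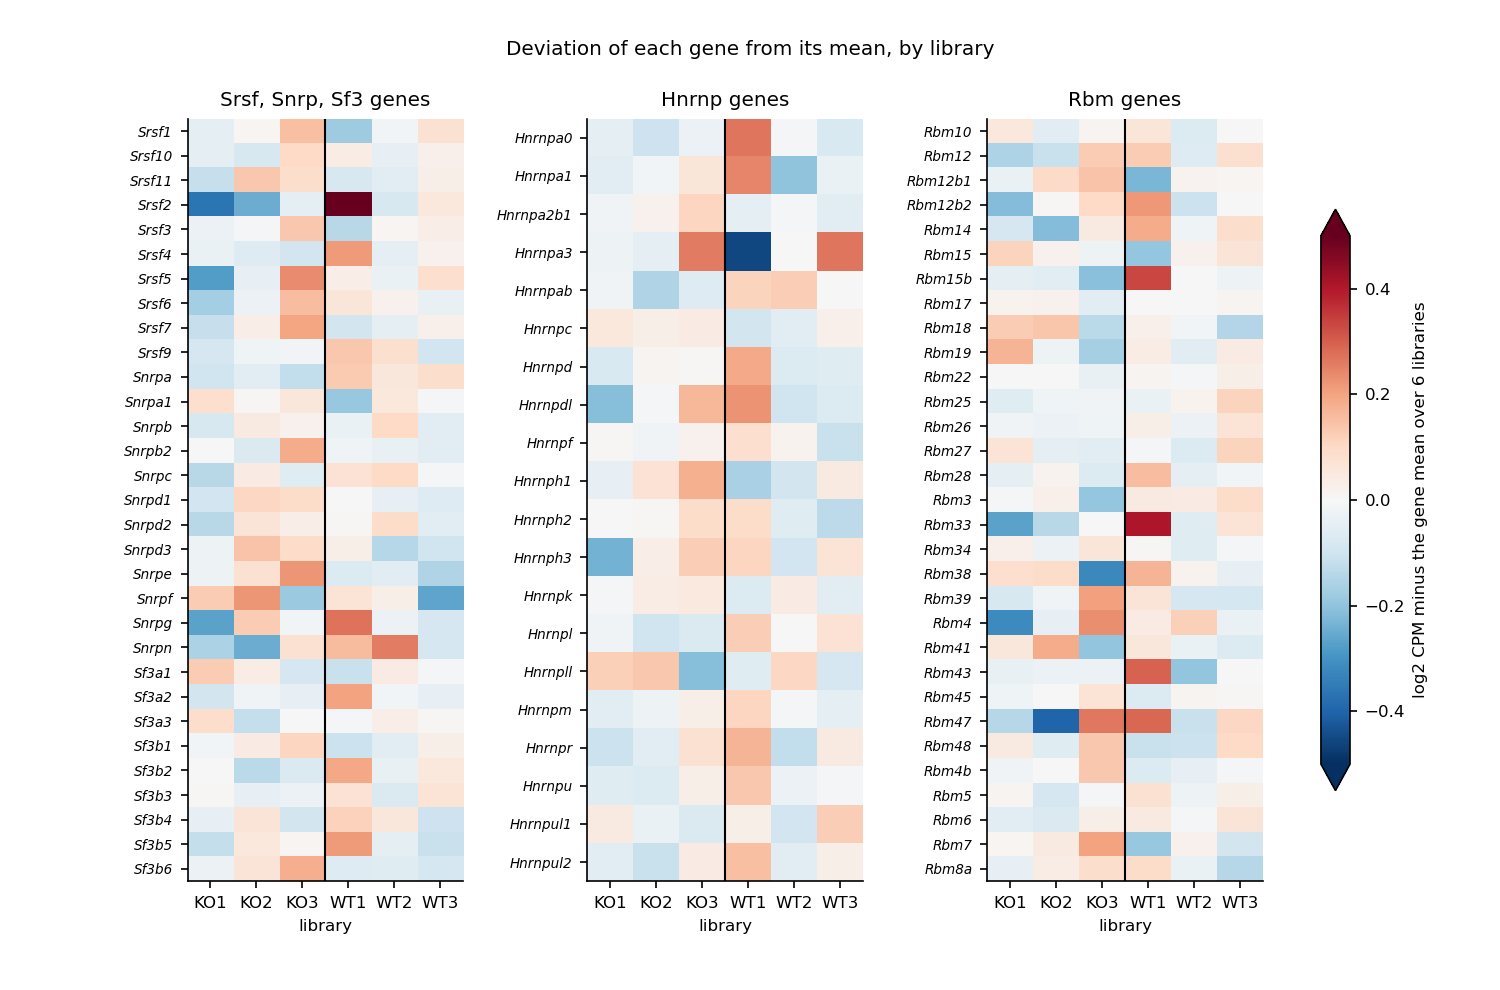
Log2 CPM of each gene in each library minus that gene's mean over the 6 libraries, by family; the 3 KO libraries stand left of the black line and the 3 WT libraries right of it. Most cells are pale; among the darkest are Srsf2 and Rbm33 in WT replicate 1 (high) and Hnrnpa3 in WT replicate 1 (low).

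Snrpa and Srsf2 had the smallest unadjusted p-values of all members. Snrpa (ENSMUSG00000061479.15, chromosome 7, 27187005 to 27196271, minus strand, GRCm38) encodes the A protein of U1, which binds a loop of the U1 RNA. It stood at 57.0, 58.9 and 56.1 CPM in KO replicates 1 to 3, against 66.9, 63.5 and 64.9 CPM in WT replicates 1 to 3. The groups did not overlap, and the replicates of each lay close together. The log2 fold change was -0.18 (SE 0.06, unadjusted p = 0.024, edgeR adjusted p = 0.574), with a 95% interval of -0.33 to -0.03. It stayed between -0.20 and -0.16 with each library left out in turn. Of the 31-base words of its longest transcript, 20.2% also occur in other genes. The gene that shares the most is BC024978, which overlaps it on the opposite strand. The sources used here do not give the strand rule of the counting, so reads from that overlap are uncertain. Against the mean of the other 5 libraries, Snrpa differed by -0.12, -0.06 and -0.15 (log2) in KO and 0.16, 0.07 and 0.11 in WT. For 69 other listed genes within 2 Mb, the medians were -0.03, -0.09 and -0.08 in KO and 0.08, 0.01 and 0.11 in WT. The neighbours thus leaned the same way, and their part in the difference of Snrpa was not tested.

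Srsf2 (ENSMUSG00000034120.18, chromosome 11, 116849901 to 116853094, minus strand, GRCm38) encodes SC35, an SR protein that activates exons. It stood at 134, 145 and 166 CPM in KO replicates 1 to 3, against 277, 163 and 178 CPM in WT replicates 1 to 3. KO replicate 3 lay above WT replicate 2, and the distance between the group means came mostly from WT replicate 1. The log2 fold change was -0.48 (SE 0.22, unadjusted p = 0.074, edgeR adjusted p = 0.574), and it was -0.20 without WT replicate 1 and -0.62 without WT replicate 2. Of the words of Srsf2, 36.9% recur in other genes, mostly in Mettl23, and it overlaps Mettl23 and Mfsd11 on the opposite strand.

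The height of Srsf2 in WT replicate 1 was shared by its neighbours on the chromosome, a pattern looked for after the value of Srsf2 had been seen. Against the mean of the other 5 libraries, WT replicate 1 was 0.82 higher for Srsf2 on the log2 scale, a factor of 1.77. Within 2 Mb of Srsf2 it was above that mean for 70 of 72 other listed genes and the highest of the 6 libraries for 67, with a median of 1.16. Within 5 Mb it was above the mean for 139 of 145 genes, with a median of 1.15 (2.21-fold), whereas over all genes it was above the mean for 50.2%. More than 10 Mb before Srsf2 the median of 748 genes on the same chromosome was -0.11, and the medians per 5 Mb there ran from -0.37 to -0.02. The same median within 5 Mb was -0.34, -0.30 and -0.32 in KO replicates 1 to 3, against -0.12 and -0.06 in WT replicates 2 and 3, each mean of the other 5 libraries there including WT replicate 1. Mfsd11, the overlapping neighbour, stood at 60.2, 64.2 and 56.6 CPM in KO, against 162, 69.3 and 67.7 CPM in WT. Eif4a3, a component of the exon junction complex in the same stretch, stood at 93.8, 96.6 and 103 CPM in KO, against 240, 107 and 110 CPM in WT, though 44.8% of its words recur in other genes. Around each of the other 81 members the largest median within 2 Mb in any library was 0.29 in size. It was that of 5 genes around Rbm27 in WT replicate 2. Smaller medians can still be near the size of a member's own difference, as for Snrpa above. The cause of the shared height around Srsf2 was not tested.

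**Figure D3:**
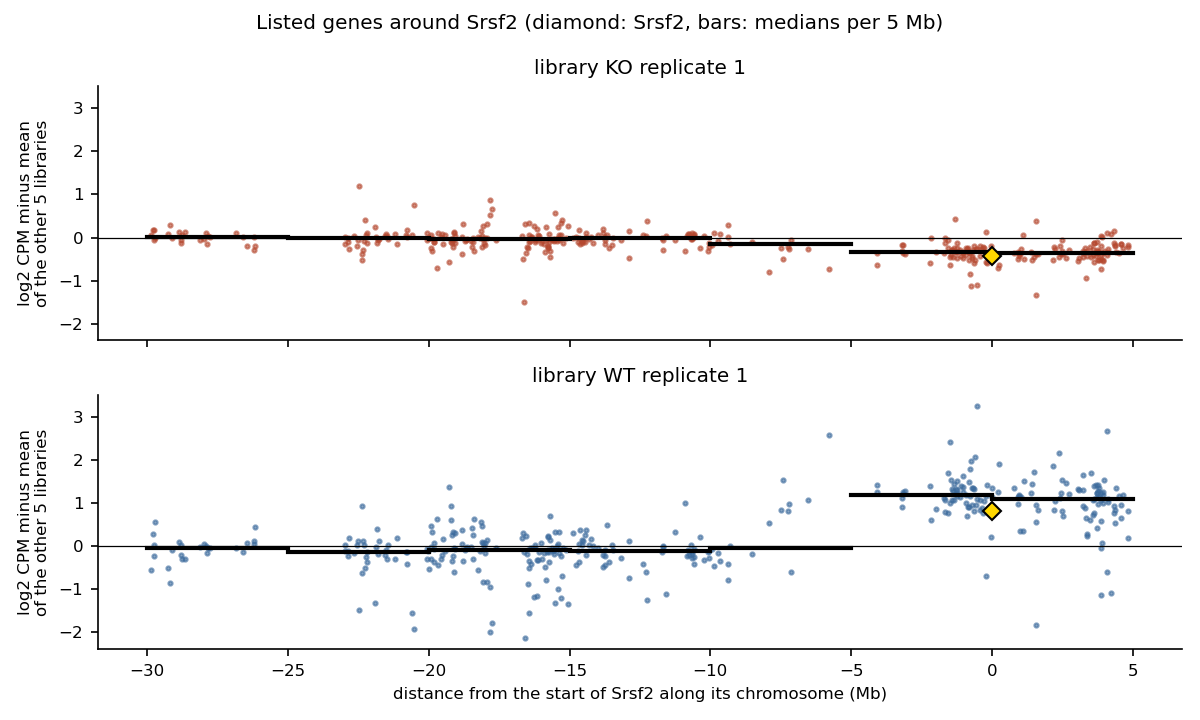
Log2 CPM of each listed gene minus its mean in the other 5 libraries, plotted against its distance from the start of Srsf2 along the chromosome in Mb, for KO replicate 1 (top) and WT replicate 1 (bottom); bars are medians per 5 Mb and the diamond is Srsf2. In WT replicate 1 the medians within 5 Mb of Srsf2 are 1.18 before it and 1.1 after it; over the whole chromosome, the medians more than 5 Mb before Srsf2 lie between -0.37 and -0.02.

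Promoter sequence was read for the 3 members that DESeq2 put under an unadjusted p of 0.05, Snrpa, Hnrnpab and Srsf2, and for Sf3b3, whose promoter holds the NBRE, the element AAAGGTCA that NR4A1 is known to bind as a monomer. RefSeq's table of promoters (GRCm38.p6) matched 70 of the 82 members. The 250 bases before the start were searched on both strands for NBRE (AAAGGTCA), the ETS site (CCGGAAG), NRF1 (GCATGCGC), YY1 (AAGATGGC), the CCAAT box (CCAAT), the GC box (GGGCGG), the E box (CACGTG) and the TATA box (TATAAA). Below, each stretch free of annotated exons is given 5′ to 3′ on the gene's minus strand, with matches to these motifs on either strand in capitals, where adjoining GC boxes share letters. They lie at chr7:27196272-27196521 for Snrpa, chr11:51606882-51607131 for Hnrnpab, chr11:116853095-116853294 for Srsf2 and chr8:110846813-110847023 for Sf3b3.
Snrpa: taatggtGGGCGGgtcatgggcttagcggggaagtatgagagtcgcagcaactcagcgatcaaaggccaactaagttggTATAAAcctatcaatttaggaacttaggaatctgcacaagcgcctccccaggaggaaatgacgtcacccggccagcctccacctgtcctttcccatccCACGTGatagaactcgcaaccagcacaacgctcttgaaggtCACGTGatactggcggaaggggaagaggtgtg
Hnrnpab: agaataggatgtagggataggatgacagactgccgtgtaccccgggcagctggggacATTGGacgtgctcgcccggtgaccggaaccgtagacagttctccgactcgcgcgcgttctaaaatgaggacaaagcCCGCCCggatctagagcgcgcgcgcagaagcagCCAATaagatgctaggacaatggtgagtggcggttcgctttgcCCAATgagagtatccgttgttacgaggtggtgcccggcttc
Srsf2: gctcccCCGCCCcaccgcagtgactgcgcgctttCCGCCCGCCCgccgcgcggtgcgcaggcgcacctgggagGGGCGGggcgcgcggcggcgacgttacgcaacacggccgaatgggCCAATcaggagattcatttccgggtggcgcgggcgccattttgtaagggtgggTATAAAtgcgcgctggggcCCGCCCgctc
Sf3b3: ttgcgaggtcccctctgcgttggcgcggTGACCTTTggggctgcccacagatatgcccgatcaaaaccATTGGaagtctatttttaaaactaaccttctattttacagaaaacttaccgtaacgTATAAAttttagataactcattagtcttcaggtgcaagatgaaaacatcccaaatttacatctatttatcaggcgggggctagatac

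The capitals TGACCTTT in the Sf3b3 promoter are the NBRE read on the opposite strand. An NBRE was present in 2 of the 70 members (2.86%), Sf3b3 and Snrpf, against 0.952% of 8506 listed genes with a promoter. Sf3b3, a subunit of SF3b, stood at 221, 213 and 215 CPM in KO replicates 1 to 3, against 230, 208 and 230 CPM in WT replicates 1 to 3, and its groups overlapped (log2 fold change -0.04, SE 0.07). Snrpf, an Sm protein, stood at 16.3, 17.4 and 13.2 CPM in KO, against 15.7, 15.3 and 12.5 CPM in WT, also with overlap. Its reads are uncertain, since 92.1% of its words recur in other genes. The Snrpa stretch holds a pair of E boxes, Hnrnpab holds 3 CCAAT boxes, and Srsf2 is rich in GC boxes and has a TATA box near its start. A gene counted as holding a motif when any of its promoter windows held it, and the number of windows per gene was not equalised. The ETS site was present in 27.1% of the 70 members and 16.6% of listed genes. The TATA box was present in 14.3% and 7.57%, the CCAAT box in 47.1% and 40.5%, and the E box in 10% and 10.2%. The GC box was present in 57.1% and 67.1%, NRF1 in 4.29% and 5.29%, and YY1 in 2.86% and 2.40%. Median G+C content was 60% in the members' promoters and 60.4% in those of listed genes. These matches describe letters in a window and were not tested against the expression values.

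**Figure D4:**
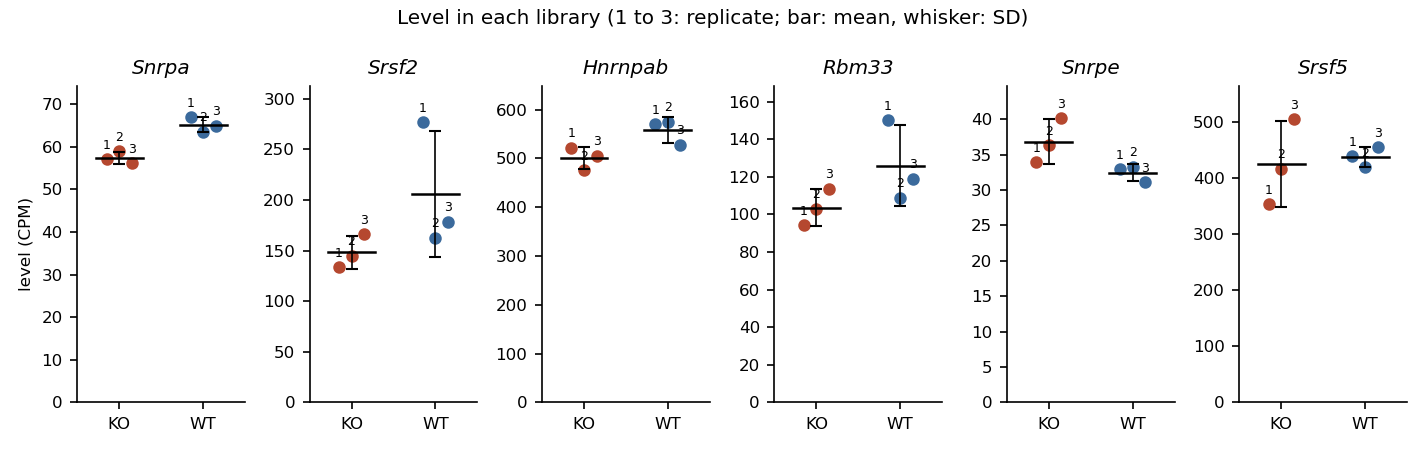
Level in CPM of 6 members in each library (points, numbered by replicate), KO left and WT right in each panel; horizontal bars are means and whiskers are SDs (n = 3 each). The groups do not overlap for Snrpa, Hnrnpab and Snrpe; WT replicate 1 is far above the rest for Srsf2 and Rbm33, and Srsf5 spans 354 to 505 CPM within the KO libraries.

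Of the 4 Snrp genes specific to U1 or U2, Snrpa was the one whose groups did not overlap, against 17.4% of all genes. Snrpc, which encodes the C protein of U1 and helps U1 pair with the start of the intron, stood at 32.6, 36.9 and 34.3 CPM in KO replicates 1 to 3, against 37.7, 38.3 and 35.5 CPM in WT replicates 1 to 3. KO replicate 2 overlapped the WT range (log2 fold change -0.10, SE 0.08). The U2 proteins lay slightly the other way. Snrpa1 averaged 24.9 ± 0.703 CPM in KO and 23.3 ± 2.0 CPM in WT, and Snrpb2 averaged 37.3 ± 3.52 CPM in KO and 35.4 ± 0.399 CPM in WT (SD, n = 3 each). Both had overlapping groups.

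The Sm genes, whose proteins B, D1, D2, D3, E, F and G form the ring around the small nuclear RNA, stood in 2 orders of level per kilobase of transcript over the 6 libraries, alike at both ends. Snrpb was the highest and Snrpf the lowest in 6 of 6 libraries, with a ratio between them of 7.87 in KO and 8.56 in WT. The order rests on 1 annotated length per gene, the same in each library, such as 3036 bases for Snrpd3 and 503 for Snrpe. Of the words of Snrpf, 92.1% are shared, mainly with Ccdc38 on the opposite strand, so its level and both ratios are uncertain. Snrpb stood at 143 ± 6.46 CPM per kb in KO and 144 ± 8.32 in WT, Snrpe at 73.2 ± 6.27 in KO and 64.5 ± 2.32 in WT, and Snrpf at 18.2 ± 2.58 in KO and 16.8 ± 2.04 in WT (SD, n = 3 each). The 7 proteins sit in the ring in equal number, and their transcripts did not stand at equal levels in either group. Snrpe had the largest positive fold change of the 82 members, at 33.9, 36.3 and 40.2 CPM in KO replicates 1 to 3, against 32.9, 33.3 and 31.1 CPM in WT replicates 1 to 3. The groups did not overlap, though KO replicate 1 lay just above WT replicate 2 (log2 fold change 0.18, SE 0.09, unadjusted p = 0.089, edgeR adjusted p = 0.574; 0.12 without KO replicate 3). With 26.8% of its words shared, mainly with Snrpert, its reads are uncertain.

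Snrpd3 stood at 84.3, 94.8 and 91.3 CPM in KO, against 87.5, 77.7 and 80.1 CPM in WT, overlapping through KO replicate 1 and WT replicate 1 (log2 fold change 0.14, SE 0.08). Snrpd1 averaged 35.4 ± 2.67 CPM in KO and 33.7 ± 0.790 CPM in WT (SD, n = 3 each). Snrpg had the widest range of the family, at 35.8, 47.2 and 42.7 CPM in KO, against 52.2, 42.3 and 40.7 CPM in WT. Its log2 fold change of -0.10 was 0.01 without WT replicate 1. Snrpn, the imprinted gene for SmN, which replaces SmB in the brain, was low, at 14, 13.2 and 16.5 CPM in KO, against 17.5, 18.7 and 14.8 CPM in WT. It overlaps Snurf on the same strand, with 34.3% of its words found elsewhere, and the words of Snrpf are shared to 92.1%, mainly with Ccdc38 on the opposite strand.

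**Figure D5:**
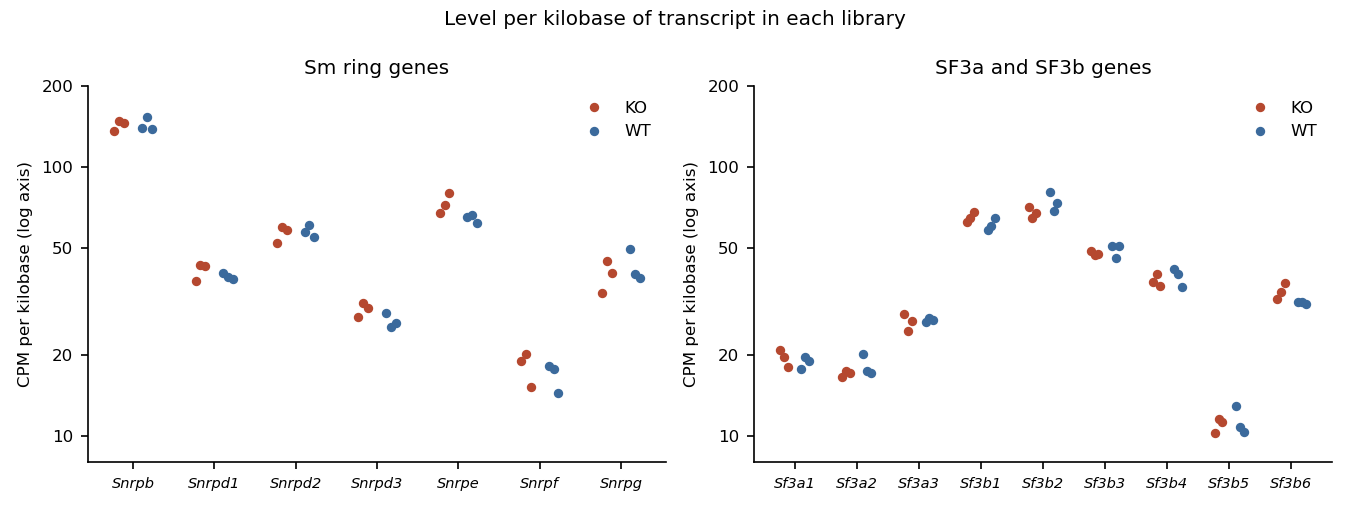
Level per kilobase of transcript (CPM per kb, log axis) of the Sm ring genes (left) and of the SF3a and SF3b genes (right) in each library, KO left and WT right for each gene. Snrpb is highest and Snrpf lowest of the Sm genes in 6 of 6 libraries, and Sf3b5 is lowest of the Sf3 genes in 6 of 6.

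In the SF3 complexes, which clasp U2 to the branch point, levels also differed more between subunits than between groups. Per kilobase, the highest subunit stood at 6.10 times the lowest in KO and 6.52 times in WT. These ratios rest on 1 annotated length per gene, the same in each library, and change with that length. Sf3b5 was divided by 3841 bases and Sf3b6 by 1180 bases, though they averaged 42.5 and 40.9 CPM in KO. Sf3b2 averaged 67.5 ± 3.19 CPM per kb in KO and 74.3 ± 6.02 in WT, and Sf3b5 averaged 11.1 ± 0.667 in KO and 11.4 ± 1.38 in WT (SD, n = 3 each). Sf3b1, the subunit most often mutated in splicing-factor cancers, stood at 386, 402 and 421 CPM in KO replicates 1 to 3, against 362, 375 and 399 CPM in WT replicates 1 to 3. Its ranges overlapped (log2 fold change 0.09, SE 0.08). Sf3b6, which contacts the branch-point adenosine, stood at 38.0, 40.6 and 44.0 CPM in KO, against 37.1, 37.2 and 36.5 CPM in WT. Groups were separate, and WT values lay within a narrow band (log2 fold change 0.15, SE 0.08, unadjusted p = 0.117, edgeR adjusted p = 0.574; 0.09 without KO replicate 3). Sf3b2 had the largest negative change of the family (-0.14, SE 0.09), and Sf3a1, Sf3a2, Sf3a3, Sf3b4 and Sf3b5 had overlapping groups as well, with log2 fold changes between -0.10 for Sf3a2 and 0.06 for Sf3a1.

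The groups overlapped for each of the 10 SR protein genes, and 17.4% of all genes had groups that did not overlap. Summed over the 10 genes, the level was 1650, 1810 and 2013 CPM in KO replicates 1 to 3, against 1919, 1807 and 1882 CPM in WT replicates 1 to 3. The KO libraries thus held both the lowest and the highest sum. KO replicate 3 was the highest library for 6 of the 10 genes and KO replicate 1 the lowest for 5, and 9 of the 10 were higher in KO replicate 3 than in KO replicate 1, against 54 of all 82 members. Srsf5, the SR gene with the highest level per kilobase, stood at 354, 417 and 505 CPM in KO, against 439, 419 and 455 CPM in WT. KO replicate 3 was 1.43 times KO replicate 1 (log2 fold change between groups -0.04, SE 0.14; 0.07 without KO replicate 1).

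Srsf1, the archetype of the family, stood at 181, 188 and 207 CPM in KO, against 165, 185 and 197 CPM in WT (log2 fold change 0.08, SE 0.09). Srsf3, the smallest SR protein, averaged 205 ± 13 CPM in KO and 196 ± 12.3 CPM in WT, and Srsf7, its close relative, averaged 98.0 ± 10.6 CPM in KO and 92.7 ± 3.86 CPM in WT (SD, n = 3 each). Srsf6 averaged 246 ± 27.7 CPM in KO and 250.3 ± 8.63 CPM in WT. Srsf10, a repressor when dephosphorylated, averaged 139 ± 9.31 CPM in KO and 140.4 ± 3.96 CPM in WT. In each of these the ranges overlapped, with log2 fold changes between -0.02 for Srsf6 and 0.08 for Srsf7. The remaining genes, Srsf4, Srsf9 and Srsf11, had log2 fold changes of -0.13, -0.08 and 0.08, and 48.2% of the words of Srsf4 recur elsewhere.

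Of all 82 members the highest level per kilobase was that of Hnrnpa2b1. This gene, whose protein binds nascent transcripts and sorts some mRNAs and miRNAs, averaged 497 ± 22.4 CPM per kb in KO and 471 ± 8.01 in WT (SD, n = 3 each). Its ranges of CPM overlapped (log2 fold change 0.08, SE 0.08). Hnrnpab, a relative of Hnrnpd, stood at 522, 476 and 505 CPM in KO replicates 1 to 3, against 570, 576 and 528 CPM in WT replicates 1 to 3. The groups did not overlap, with KO replicate 1 just under WT replicate 3 (log2 fold change -0.16, SE 0.08, unadjusted p = 0.112, edgeR adjusted p = 0.574). It overlaps Phykpl on the opposite strand, which leaves its reads uncertain, with 33.7% of its words shared.

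Hnrnpl, a regulator of CA-rich exons, stood at 312, 295 and 301 CPM in KO, against 344, 315 and 332 CPM in WT. No KO value reached the WT values (log2 fold change -0.13, SE 0.07, unadjusted p = 0.127, edgeR adjusted p = 0.58). Its paralog Hnrnpll averaged 85.1 ± 11.1 CPM in KO and 83.1 ± 5.98 CPM in WT (SD, n = 3 each), with overlap. Hnrnpc, which binds uridine tracts and shields them from the splicing machinery, stood at 279, 274 and 276 CPM in KO, against 252, 258 and 273 CPM in WT. KO replicate 2 lay just above WT replicate 3 (log2 fold change 0.08, SE 0.07). Of its words, 21.1% recur in other genes.

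Hnrnph1, which binds G-rich runs, stood at 514, 556 and 597 CPM in KO, against 472, 496 and 545 CPM in WT, with overlap (log2 fold change 0.14, SE 0.10; 0.09 without KO replicate 3). Hnrnpf, its relative, averaged 191 ± 2.56 CPM in KO and 189.9 ± 13.1 CPM in WT, and shares 70.6% of its words, mainly with Gm6430. Hnrnpa3 stood at 48.4, 47.8 and 58.9 CPM in KO, against 35.9, 49.3 and 59.3 CPM in WT. WT replicate 1 was the lowest and WT replicate 3 the highest, so the WT range held all 3 KO values, and the log2 fold change of 0.10 (SE 0.20) was -0.07 without WT replicate 1.

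Hnrnpa1, the best-known opponent of SR proteins, stood at 329, 339 and 357 CPM in KO, against 405, 298 and 334 CPM in WT (log2 fold change -0.02, SE 0.13; 0.11 without WT replicate 1). Hnrnpk, Hnrnpm and Hnrnpu had log2 fold changes of 0.05, -0.04 and -0.07, each with overlap. WT replicate 1 was the highest library for 10 of the 20 Hnrnp genes. The summed level of the family was 5767, 5785 and 6074 CPM in KO replicates 1 to 3, against 6149, 5798 and 5843 CPM in WT replicates 1 to 3, so that KO replicate 3 and WT replicate 1 lay above the other libraries.

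The Rbm genes are grouped by a shared RNA-binding fold and include splicing regulators, cold-shock and decay factors. Rbm3, a cold-induced protein, stood at 100, 103 and 88.3 CPM in KO replicates 1 to 3, against 104, 104 and 107 CPM in WT replicates 1 to 3. The groups did not overlap, with KO replicate 2 close to the WT values (log2 fold change -0.12, SE 0.08, unadjusted p = 0.182, edgeR adjusted p = 0.60; -0.05 without KO replicate 3). Rbm15b, which with Rbm15 brings the m6A writer to RNA, stood at 93.4, 93.4 and 83.7 CPM in KO, against 122, 96.9 and 95.2 CPM in WT. All KO values lay below the WT values, and the log2 fold change of -0.21 (SE 0.12) was -0.09 without WT replicate 1. Rbm15 averaged 42.9 ± 2.09 CPM in KO and 40.9 ± 3.82 CPM in WT (SD, n = 3 each).

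Rbm33 stood at 94.2, 103 and 114 CPM in KO, against 150, 109 and 119 CPM in WT, with KO replicate 3 inside the WT range. Its log2 fold change of -0.28 (SE 0.14, unadjusted p = 0.090, edgeR adjusted p = 0.574) was -0.14 without WT replicate 1. Rbm7, a subunit of the complex that brings the nuclear exosome to RNA, stood at 52.2, 53.6 and 59.7 CPM in KO, against 45.6, 52.7 and 48.7 CPM in WT. KO replicate 1 lay inside the WT range (log2 fold change 0.17, SE 0.09; 0.11 without KO replicate 3). Rbm47, an epithelial RNA-binding protein known as a suppressor of breast cancer progression, stood at 36.1, 30.2 and 47.9 CPM in KO, against 48.7, 36.9 and 42.8 CPM in WT. The ranges overlapped widely (log2 fold change -0.17, SE 0.19; -0.03 without KO replicate 2 and -0.37 without KO replicate 3).

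Rbm39, a partner of U2AF and the target of aryl sulfonamide degraders, had the highest level per kilobase of the family, at 109 ± 11.7 CPM per kb in KO and 104 ± 6.39 in WT (SD, n = 3 each). The paralogs Rbm5 and Rbm10, regulators of apoptotic exons, averaged 153 ± 5.50 CPM and 58.2 ± 2.11 CPM in KO, against 159 ± 5.70 CPM and 57.9 ± 2.61 CPM in WT. Of the words of Rbm10, 53.7% recur elsewhere. Rbm8a, the exon junction protein Y14, had a log2 fold change of 0.05 (SE 0.08) and Rbm25, a factor of 5′ splice site choice, -0.07 (SE 0.07), both with overlapping groups. Across all families, 27 members have more than 20% of their words in common with other genes. Among the 55 that share at most 20% the groups did not overlap for 4, against 17.4% of all genes whatever their sharing. The median log2 fold change of the 55 was -0.02.

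The rest of the splicing and RNA-processing machinery, taken from lists of 187 genes of which 182 were in the table, had log2 fold changes from -0.64 for Eif4a3 to 0.25 for Snrnp25. edgeR called 0 of them, and at an unadjusted p under 0.05 it gave 2 higher and 3 lower, 2.75% against 7.88% of all genes. The median log2 fold change over the 182 genes was -0.02, and the groups did not overlap for 11 higher and 8 lower, 10.4% against 17.4% of all genes. Tra2a, an SR-like activator of exons, stood at 206, 205 and 214 CPM in KO replicates 1 to 3, against 173, 178 and 191 CPM in WT replicates 1 to 3 (log2 fold change 0.21, SE 0.07, unadjusted p = 0.023, edgeR adjusted p = 0.574). The paraspeckle gene Pspc1 had a log2 fold change of 0.20 (SE 0.08). Gemin7, of the SMN complex that loads Sm rings, stood at 52.3, 52.4 and 52.3 CPM in KO, against 60.8, 59.1 and 58.7 CPM in WT (log2 fold change -0.19, SE 0.06, unadjusted p = 0.019, edgeR adjusted p = 0.574). The largest changes were those of Eif4a3, described above, and of the export adaptor gene Alyref, both named after their values were seen. Alyref, which also lies within 5 Mb of Srsf2, stood at 45.1, 47.8 and 47.7 CPM in KO, against 108, 46.6 and 58.5 CPM in WT (log2 fold change -0.60, SE 0.31, edgeR adjusted p = 0.574). KO replicates 2 and 3 lay above WT replicate 2, and WT replicate 1 was far above the other libraries. Groups did not overlap for Tra2a, Pspc1 and Gemin7, nor for Thoc5, a gene of mRNA export (log2 fold change -0.22, SE 0.08). Esrp2, an epithelial splicing regulator, stood at 75.5, 74.9 and 89.6 CPM in KO, against 139, 103 and 87.6 CPM in WT, overlapping through KO replicate 3 and WT replicate 3 (log2 fold change -0.45, SE 0.18, unadjusted p = 0.048, edgeR adjusted p = 0.574).

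By list, the genes above and below 0 numbered 11 and 14 for proteins of U1 and the U4/U6.U5 tri-snRNP outside the naming rule, with a median of -0.01, and 7 and 7 for U2 recruitment (-0.01). They numbered 18 and 12 for the Prp19 and catalytic step complex (0.01), 10 and 13 for Lsm and SMN assembly (-0.05), and 12 and 16 for SR kinases and SR-like proteins (-0.01). They numbered 8 and 17 for exon junction and export genes (-0.04), and 12 and 26 for other regulators of alternative splicing (-0.03). In each of the 7 lists edgeR called 0 genes, and DESeq2 called 0. A p that misses the threshold does not show that the groups are alike, and with 3 libraries each the intervals given above are what bounds the differences.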

How the data were processed

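The measurement was RNA-seq of 6 libraries, for which the authors deposited raw counts, 1 table with a row per gene symbol and a column per library. Tools named in the submitters' processing notes are CASAVA 1.8, HISAT2 and featureCounts, with build GRCm38 (mm10). Per the labels' protocols, a NEBNext Ultra kit and 150-base paired reads were used. The sources used here do not give the rules for strand and multiple alignments. Each listed gene reached at least 133 counts in some library, and other genes were not analysed here.

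Counts of all 10995 genes were fitted with edgeR 4.0.16 (R 4.3.3; filterByExpr, which removed 0 genes, TMM, robust quasi-likelihood F test, group as the sole term), adjusted over all genes by Benjamini-Hochberg at 0.05. Standard errors were derived from that test, and intervals are at 95%. DESeq2 1.42.0, limma-voom (limma 3.58.1), other scalings, a replicate block and leaving out each library were alternatives. The tests were checked on simulated counts. No pair of libraries agreed within counting noise (smallest chi-square per degree of freedom 23.3). Members were matched to GENCODE M21 (82 of 82). Levels per kilobase use the median length of a gene's CCDS-tagged transcripts, and shared words are 31-base words of the longest transcript. Deviations by position used log2(CPM + 0.1).

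The members and lists were chosen with earlier results of these data known. Named members were the 6 with the smallest p in each direction, the highest per kilobase and the widest range in each family, and genes chosen by role. Other members were named after their values were seen.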

Additional observations from a re-analysis of the deposited data

How the results depend on the processing

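With each alternative edgeR, DESeq2 and limma-voom called 0 members, also at an adjusted p under 0.1, the smallest adjusted p reached being 0.33, and called 0 genes of the other lists. The median of the 82 genes stayed between -0.03 and 0.0045. Members at an unadjusted p under 0.05 numbered 1 in the main test, 0 to 3 with 1 library left out (3.53% to 12.4% of all genes), 0 with the replicate block (7.84%) and 3 with DESeq2 (10.7%). For genes of the other lists these numbers were 5, 1 to 7, and 1 with the block. The deviations of same-numbered libraries had correlations of -0.11, 0.35 and -0.25, and those of other pairs ran from -0.33 to 0.35. These values do not decide whether the numbers pair libraries. Nothing in the labels says that they do, so the numbers were not taken as pairs. Members without overlap numbered 8 in the main comparison, against 17.4% of all genes. They numbered 12 to 24 with 2 libraries against 3, where overlap is rarer by construction and 23.3% to 34.7% of all genes did not overlap. Of the 55 with little word sharing they numbered 4, against the same 17.4% of all genes, whatever their sharing. Among 45 named members, 32 of 585 values under alternatives changed sign, in 17 genes, and 0 passed the threshold. With scaling by library size alone the log2 fold changes were 0.015 for Snrpb, 0.0013 for Srsf6, 0.012 for Srsf10, 0.011 for Hnrnpa1 and 0.0048 for Sf3a3. With 1 library left out in turn, the ranges were -0.11 to 0.11 for Hnrnpa1, -0.072 to 0.28 for Hnrnpa3, -0.043 to 0.050 for Hnrnpf, -0.025 to 0.14 for Hnrnpll, -0.064 to 0.010 for Hnrnpm, -0.024 to 0.041 for Rbm10, -0.0056 to 0.12 for Rbm15, -0.014 to 0.13 for Rbm39, -0.070 to 0.033 for Sf3a3, -0.10 to 0.0017 for Sf3b4, -0.10 to 0.060 for Sf3b5, -0.034 to 0.040 for Snrpb, -0.20 to 0.014 for Snrpg, -0.067 to 0.022 for Srsf10, -0.18 to 0.074 for Srsf5, -0.11 to 0.050 for Srsf6 and -0.0012 to 0.15 for Srsf7. The cause of these changes was not tested. The depth behind the lowest member, Rbm48, was 6.64 to 7.87 CPM, and counts per gene limit the account to amounts of transcript.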

Other observations

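Several RNA-binding genes have names close to the rule and stood outside it. They were named after their values were seen. Rbmx, the gene for hnRNP G, averaged 39.8 ± 5.55 CPM in KO libraries and 31.8 ± 3.93 CPM in WT libraries (SD, n = 3 each), with overlapping groups and a log2 fold change of 0.32 (SE 0.14). Rbms3, a binder of AU-rich RNA, averaged 42.8 ± 3.78 CPM in KO and 36.0 ± 2.56 CPM in WT, without overlap (0.25, SE 0.10). Pcbp4, a binder of poly(C) RNA, stood at 45.1, 51.5 and 49.9 CPM in KO replicates 1 to 3, against 96.6, 56.7 and 54.5 CPM in WT replicates 1 to 3, without overlap (-0.50, SE 0.24). Snrnp70, which encodes the U1-70K protein, averaged 374 ± 24.2 CPM in KO and 422 ± 26.0 CPM in WT (-0.18, SE 0.09), also without overlap. In the same particle, Snrpa had no overlap either, whereas the groups of Snrpc overlapped. Over all genes, 17.4% had groups that did not overlap. Rbmx, Rbms3, Pcbp4 and Snrnp70 each had an edgeR adjusted p of 0.574.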
